A study of Mus musculus with 16 samples.

Results

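The genes described here are the mouse genes of apoptosis, granzymes and NF-kB signalling, measured in whole lung after ovalbumin (OVA) or saline (PBS) exposure. They were chosen by symbol, with earlier results of these data known. The symbols were numbered caspases, Bcl-numbered genes, Birc1 to Birc4 and Birc6, granzymes and perforin, and Fas and its ligand. Traf genes, Nfkb, Rel and Ikbk genes, Map3k and Ripk kinases, Bax, Bak1 and Bid were also taken. On the array's annotation 87 symbols matched, and 60 of them, with 84 probe sets, carried a label that could be tied to its own row of values; of these, 45 passed a filter on low values and were tested among 7276 genes. RNA from whole lungs taken at day 22, 1 day after the last allergen exposure, was hybridised to 16 one-colour Affymetrix arrays, 4 in each of 4 groups. The groups were BALB-RAG mice given OVA, BALB-RAG mice given PBS, BALB/c mice given OVA and BALB/c mice given PBS. OVA is the protein allergen of a standard mouse asthma model and PBS its vehicle. BALB-RAG is the name the labels give; RAG proteins assemble antigen receptor genes, and mice without them are known to lack mature T and B cells, but the labels state neither the allele nor the animals' age, nor whether replicates were separate animals, so the p-values cover no more than the variation between these arrays, part of which could be technical.

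Apoptosis runs by 2 routes: death receptors such as Fas switch on initiator caspases, and mitochondria are opened by pore-forming members of the Bcl2 family that other members of that family hold back. Granzymes are proteases that natural killer (NK) cells and cytotoxic T cells deliver into target cells through perforin. NF-kB is a family of dimeric transcription factors kept inactive by inhibitor proteins until IkB kinases act; TRAF and Birc proteins link receptors to those kinases, and in allergic airways NF-kB is known as an inducer of inflammatory genes. Values below are log2 intensities, on which a difference of 1 is 2-fold; "rose" and "fell" are used for an adjusted p under 0.05 (limma, Benjamini-Hochberg over all 7276 genes), and log2 4 is taken as background. In whole lung, fewer cells of a type and less RNA per cell cannot be told apart.

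Before the members, the arrays were checked against their labels. Lung epithelium genes (10 of the 16 listed were tested) averaged 10.55 to 11.10 on all 16 arrays. Rag2 lay between 2.84 and 4.20 on every array, so it checks nothing, and Rag1 was not analysed here. T cell genes (12 of 18 listed tested) averaged 3.25, 4.83, 3.56 and 3.46 on the arrays labelled BALB-RAG OVA and 4.52, 4.36, 4.09 and 4.21 on those labelled BALB-RAG PBS, against 6.28, 5.68, 4.77 and 5.70 in BALB/c OVA and 4.45, 4.28, 4.06 and 4.26 in BALB/c PBS. The arrays labelled BALB-RAG PBS thus carried as much T cell signal as BALB/c PBS arrays, near background on both, and replicate 2 labelled BALB-RAG OVA stood above the other three of its group. Plasma cell genes (7 of 10 tested) reached 7.34 to 8.44 on arrays labelled BALB-RAG PBS, where 7.16 to 8.11 was found in BALB/c PBS. On arrays labelled BALB-RAG OVA they averaged 5.86, 8.75, 5.75 and 5.87, replicate 2 again being the highest. B cell genes (10 of 13 tested) went the other way, at 4.83 to 5.39 and 5.70 to 6.02. Of these 10 genes 9 were lower on arrays labelled BALB-RAG PBS, none past the threshold. On arrays labelled BALB-RAG OVA, B cell genes averaged 3.91, 5.80, 4.06 and 4.05, so that replicate 2 stood above the others here too. Because of the T cell and plasma cell values these groups are called arrays labelled BALB-RAG throughout. Results that rest on replicate 2 are also given without it. In several members, Gzma, Ikbke and Bid among them, replicates 1 and 2 lay apart from replicates 3 and 4; the labels do not say what the numbers stand for, and values within these pairs are given where they differ.

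In BALB/c lung, 7 of the 45 tested members rose with OVA and 3 fell. The risers were Birc3, Bak1, Casp8, Bcl11b, Ikbke, Nfkb2 and Bid, by 1.47- to 3.18-fold; Map3k20, Bcl6b and Bcl2l2 fell by 1.60- to 2.63-fold. Among all genes 8.73% rose and 6.78% fell, 15.5% in either direction, and among the members 15.6% rose and 6.67% fell; the members' median change was 0.11, against 0 over all genes. At an unadjusted p under 0.05 stood 13 members (28.9%), beside 27.5% of all genes. All 10 changes had the same sign within replicates 1 and 2 and within replicates 3 and 4. The 10 were called on these same arrays, so this is not separate support. With replicates 1 and 2 alone 5 of the 10 kept their call, and with replicates 3 and 4 alone 5. The count of risers fell to 4 when BALB/c OVA replicate 1, BALB/c PBS replicate 3 or BALB/c PBS replicate 4 was left out.

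**Figure D1:**
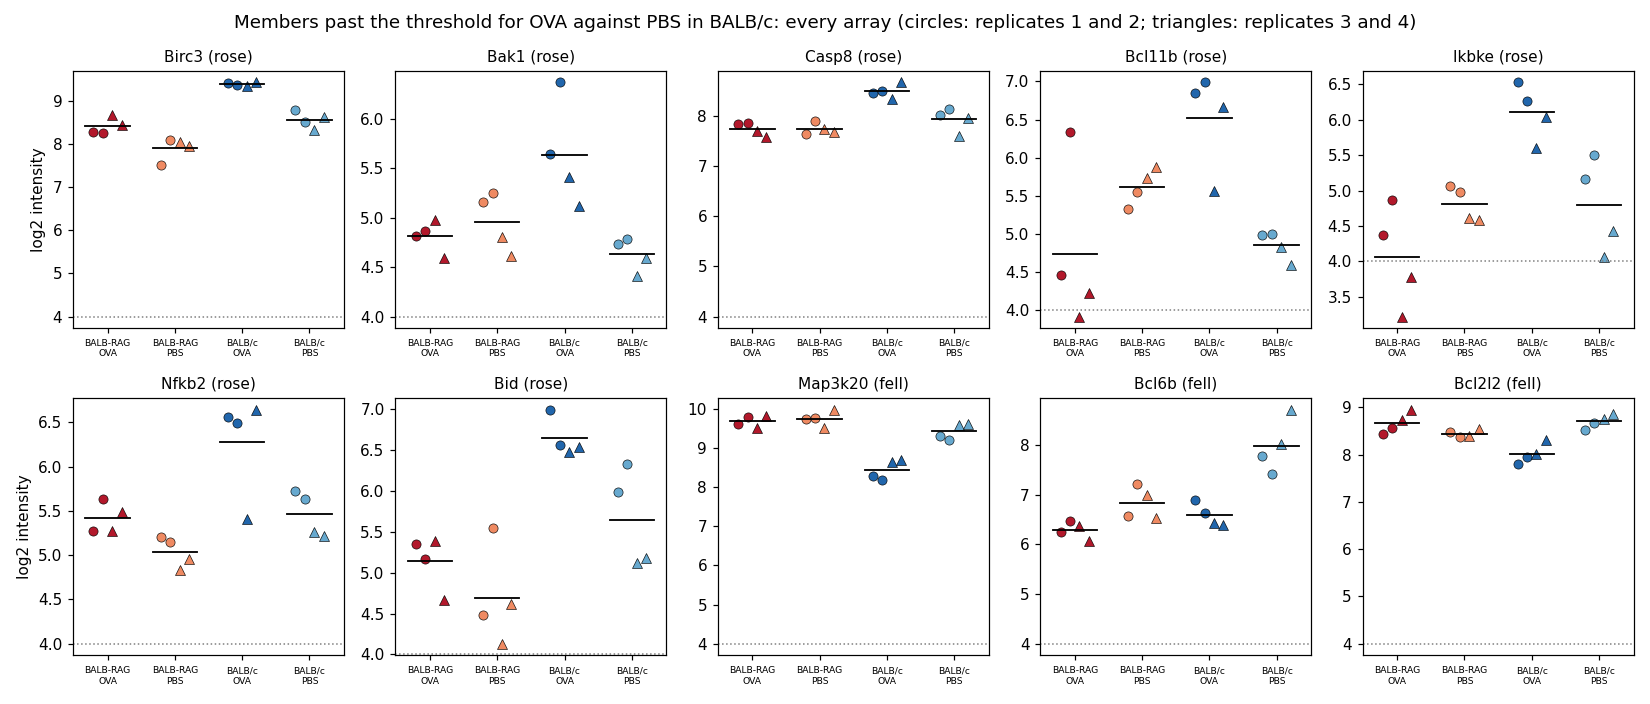
Log2 intensity (vertical axis, a scale of its own in each panel) on every array for the 10 members past the threshold for OVA against PBS in BALB/c. Points are arrays (circles, replicates 1 and 2; triangles, replicates 3 and 4), black lines group means and the dotted line log2 4; Nfkb2 is the panel in which the BALB/c OVA and PBS points overlap.

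Of the 3 inhibitor of apoptosis genes tested 1 rose. Birc3 (cIAP2) is a ubiquitin ligase that binds TRAF proteins, holds back caspase 8 and is a textbook NF-kB target. It stood at 9.42, 9.37, 9.36 and 9.44 in BALB/c OVA lungs, against 8.80, 8.51, 8.33 and 8.64 in BALB/c PBS lungs. No OVA array overlapped a PBS array, and the 4 OVA arrays lay close together. The change was 0.83 ± 0.15 (SE, adjusted p = 0.00122), or 1.78-fold. Its neighbour on chromosome 9, Birc2 (cIAP1), with no protein-coding gene between them, had a difference of 0.31 (adjusted p = 0.165), which passed with replicate number as a block (adjusted p = 0.027). For Birc6, a very large ubiquitin-conjugating member, it was 0.09 (adjusted p = 0.848).

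The promoters of Birc3 and Nfkb2 are shown because both genes are textbook NF-kB targets and both rose. The sequences are from RefSeq (GRCm38.p6), 5′ to 3′ on the gene's strand, 250 bases before to 50 after the start. Capitals mark the letters of a loose kB-like motif, GGG and CC with any 5 bases between them, searched on both strands with overlapping matches counted.
Birc3, chr9:7873121-7873420, minus strand: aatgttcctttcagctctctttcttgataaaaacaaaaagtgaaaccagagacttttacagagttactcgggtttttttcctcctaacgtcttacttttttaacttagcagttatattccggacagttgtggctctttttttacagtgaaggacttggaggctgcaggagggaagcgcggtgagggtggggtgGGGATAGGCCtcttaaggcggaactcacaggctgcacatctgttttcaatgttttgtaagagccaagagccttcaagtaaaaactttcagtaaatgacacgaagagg
Nfkb2, chr19:46305445-46305744, plus strand: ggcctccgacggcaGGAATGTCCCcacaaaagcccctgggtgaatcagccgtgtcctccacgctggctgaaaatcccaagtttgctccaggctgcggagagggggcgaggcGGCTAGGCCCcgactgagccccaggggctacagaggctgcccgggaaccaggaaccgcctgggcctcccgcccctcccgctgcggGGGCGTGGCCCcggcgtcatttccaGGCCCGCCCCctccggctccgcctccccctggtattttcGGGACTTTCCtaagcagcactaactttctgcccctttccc

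The motif was found in 50.8% of the 32851 promoters of the table, all of the same length. Birc3 held 1 match. Nfkb2 has 3 entries in the table; the one printed, the middle one by position, held 6 matches, the one before it 9 and the one after it, which overlaps it, 5, and it was chosen after its matches were seen. Bcl6b is not listed. Of the other members that rose, Bak1 and Bid held 1 match each and Bcl11b, Casp8 and Ikbke none; of those that fell, Bcl2l2 held 3 and both Map3k20 entries 2. The matches are letters in these windows only.

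Among the NF-kB, Rel and IkB kinase genes, 2 of 8 tested rose and none fell. Nfkb2 encodes p100, the precursor of p52 in the noncanonical pathway. Its values were 6.56, 6.49, 5.41 and 6.64 in BALB/c OVA lungs, against 5.73, 5.64, 5.26 and 5.22 in BALB/c PBS lungs. Replicate 3 of the OVA group lay inside the PBS range and the other three lay above it. The change was 0.81 ± 0.23 (adjusted p = 0.024), and it no longer passed in a fit on the BALB/c arrays alone (adjusted p = 0.0913) or without any 1 of BALB/c OVA replicates 1, 2 and 4 and BALB/c PBS replicates 3 and 4 (0.0691 to 0.0784). Ikbke, an inducible kinase related to the IkB kinases that also acts in interferon induction, measured 6.53, 6.27, 5.60 and 6.04 in BALB/c OVA lungs and 5.16, 5.51, 4.06 and 4.44 in BALB/c PBS lungs. All OVA arrays were above all PBS arrays, for a change of 1.32 ± 0.35 (adjusted p = 0.0163), although within each group replicates 1 and 2 were the higher. It was lost without BALB/c OVA replicate 1, BALB/c PBS replicate 3 or BALB/c PBS replicate 4 (adjusted p 0.0543 to 0.0601).

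Relb, the partner of p52, had 6.33, 6.41, 5.49 and 6.14 in BALB/c OVA lungs, against 5.55, 5.58, 5.38 and 5.45 in BALB/c PBS lungs. OVA replicates 1, 2 and 4 were above every PBS array. Its difference of 0.60 ± 0.20 missed the threshold (adjusted p = 0.0544) and passed it with replicate number as a block (adjusted p = 0.0309). Rela, the p65 subunit of the canonical dimer, had a difference of -0.12 (95% interval -0.41 to 0.17). The canonical kinase Ikbkb, its scaffold Ikbkg, and the inhibitors Nfkbib (IkB beta) and Nfkbiz (the nuclear IkB zeta) had differences of 0.07 to 0.17, none past the threshold. Rel and Nfkbid were mostly under log2 4; Nfkbid reached 5.56, 4.34, 3.30 and 2.98 in BALB/c OVA lungs, against 3.60, 3.21, 4.51 and 2.78 in BALB/c PBS lungs, and the groups overlapped.

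Of the mitochondrial genes, the death-promoting Bak1 and Bid rose and the death-restraining Bcl2l2 fell, 3 of 8 tested. Bak1 forms pores in the outer mitochondrial membrane. It measured 5.64, 6.37, 5.41 and 5.12 in BALB/c OVA lungs and 4.73, 4.79, 4.41 and 4.60 in BALB/c PBS lungs, and OVA replicate 2 was the highest. All OVA arrays exceeded all PBS arrays, with a change of 1.01 ± 0.22 (adjusted p = 0.00564). Bid carries the death receptor signal to mitochondria once caspase 8 has cut it. It had 7.00, 6.56, 6.48 and 6.54 in BALB/c OVA lungs, against 5.99, 6.33, 5.11 and 5.18 in BALB/c PBS lungs, where replicates 1 and 2 were about 1 log2 unit above replicates 3 and 4. The change of 0.99 ± 0.31 was close to the threshold (adjusted p = 0.0377) and was lost without any 1 of the 4 BALB/c OVA arrays or without BALB/c PBS replicate 3 or 4 (adjusted p 0.0507 to 0.123).

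Bcl2l2 (Bcl-w), a death-restraining member of the family, had 7.80, 7.95, 8.0 and 8.32 in BALB/c OVA lungs and 8.53, 8.66, 8.75 and 8.86 in BALB/c PBS lungs. Every OVA array was below every PBS array, and the change was -0.68 ± 0.14 (adjusted p = 0.00322), 1.60-fold lower. Bcl2l1 (Bcl-xL), of the same restraining class, had a difference of -0.47 (95% interval -0.98 to 0.03, adjusted p = 0.215). The difference was -0.06 for Bcl2 itself and -0.08 for the death-promoting Bcl2l11 (Bim). For the more distant relatives Bcl2l13 and Bcl2l14 it was 0.13 and 0.24; the lowest adjusted p of these 4 genes was 0.654.

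One of the 4 caspases tested rose. Casp8, the initiator caspase of death receptors, measured 8.46, 8.50, 8.35 and 8.67 in BALB/c OVA lungs and 8.03, 8.15, 7.60 and 7.97 in BALB/c PBS lungs. The groups did not overlap and the change was 0.56 ± 0.13 (adjusted p = 0.00876), or 1.47-fold. The difference was 0.23 for the executioner Casp6, -0.20 for Casp9, the initiator at the mitochondrial apoptosome, and -0.05 for Casp12, with adjusted p from 0.36 to 0.94.

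Several of the other Bcl-numbered genes are named for chromosome breaks in lymphomas, and not all of the group are regulators of death. Bcl11b, a zinc finger factor needed for T cell development, had 6.85, 6.99, 5.56 and 6.67 in BALB/c OVA lungs, against 4.98, 4.99, 4.83 and 4.59 in BALB/c PBS lungs. The groups were apart, and its change of 1.67 ± 0.42 was the largest rise among the tested members in this comparison (adjusted p = 0.0122, 3.18-fold). On the same arrays the T cell list averaged 4.77 to 6.28 in BALB/c OVA lungs and 4.06 to 4.45 in BALB/c PBS lungs, with 7 of its 12 tested genes called higher; the part of these cells in the rise was not tested. Bcl6b, a repressor related to Bcl6, measured 6.89, 6.64, 6.44 and 6.39 in BALB/c OVA lungs and 7.79, 7.41, 8.03 and 8.71 in BALB/c PBS lungs. Every OVA array was below every PBS array, and Bcl6b fell by 2.63-fold (change -1.39 ± 0.23, adjusted p = 0.000799). The change was -0.83 in replicates 1 and 2 and -1.96 in replicates 3 and 4.

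Endothelial genes moved beside Bcl6b: 5 of 10 tested fell and none rose, and their mean was 9.20 to 9.80 in BALB/c OVA lungs, against 10.10 to 10.27 in BALB/c PBS lungs; their part in the fall of Bcl6b was not tested. Bcl3, a nuclear IkB protein that binds p52 and p50 dimers, had a difference of 0.66 (adjusted p = 0.25) with values of 7.77, 7.55, 6.74 and 7.47 in BALB/c OVA lungs and 7.47, 7.35, 6.26 and 5.83 in BALB/c PBS lungs. The PBS replicates 1 and 2 reached the OVA range. For Bcl10, the adaptor between antigen receptors and NF-kB, the difference was 0.26, and for Bcl6, the germinal centre repressor, -0.03.

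None of the 4 TRAF genes tested passed in BALB/c lung. Traf1, itself a textbook NF-kB target, had 6.91, 6.78, 6.57 and 6.82 in BALB/c OVA lungs, against 6.14, 6.41, 6.54 and 6.11 in BALB/c PBS lungs. The groups did not overlap, but replicate 3 of PBS came close to replicate 3 of OVA, and the difference of 0.47 missed the threshold (adjusted p = 0.166). Traf3ip3, a TRAF3-binding protein of lymphocytes, had a difference of 0.96 (adjusted p = 0.213) with overlapping groups. For Traf6, the ubiquitin ligase of Toll-like and interleukin-1 receptors, it was -0.13 and for Traf7 -0.03.

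Of 10 MAP3 kinases tested 1 fell and none rose, with a family median of -0.09. Map3k20 (ZAK), a kinase upstream of JNK and p38 that responds to stalled ribosomes, stood at 8.29, 8.18, 8.63 and 8.70 in BALB/c OVA lungs, against 9.30, 9.21, 9.59 and 9.62 in BALB/c PBS lungs. Every OVA array was below every PBS array, and the change of -0.98 ± 0.15 had the smallest adjusted p of the tested members (adjusted p = 0.00044, 1.97-fold lower). Another Map3k20 probe set had a difference of -0.35, which did not pass (adjusted p = 0.337). Map3k8 (Tpl2), which is held by the NF-kB precursor p105, had a difference of 0.35 and Map3k14, the NF-kB inducing kinase of the noncanonical pathway, of -0.08 at values close to background. For Map3k7 (TAK1), which activates the IkB kinases, it was 0.03 and for the stress kinase Map3k5 (ASK1) -0.29. Map3k1, Map3k3, Map3k4, Map3k10 and Map3k12 ranged from -0.51 to 0.20. Ripk4, a kinase of epithelial differentiation and the sole Ripk tested, had a difference of -0.32 (adjusted p = 0.265).

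Neither tested granzyme passed in BALB/c lung, and both went opposite ways in the replicate pairs. Gzma was 8.31, 8.03, 9.86 and 10.14 in BALB/c OVA lungs and 9.34, 9.18, 7.64 and 7.52 in BALB/c PBS lungs. Gzmb was 6.31, 5.03, 6.81 and 8.39 in BALB/c OVA lungs and 6.26, 6.07, 5.31 and 4.31 in BALB/c PBS lungs. In replicates 1 and 2 the OVA arrays were below the PBS arrays for Gzma and straddled them for Gzmb, and in replicates 3 and 4 the OVA arrays were above the PBS arrays for both. For Gzma the overall difference of 0.66 (adjusted p = 0.544) was made of -1.09 in replicates 1 and 2 and 2.42 in replicates 3 and 4, and replicates 3 and 4 alone gave an adjusted p of 0.00579. For Gzmb it was 1.15 (adjusted p = 0.205), made of -0.49 and 2.79, with an adjusted p of 0.0238 in replicates 3 and 4 alone. Without BALB/c OVA replicate 2 it passed (1.68, adjusted p = 0.0472). The difference between the replicate pairs was not itself tested.

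Other NK cell genes were read on the same arrays. The NK cell list (5 of 16 tested: Klrg1, Klra7, Klra8, Il2rb and Ncr1) averaged 5.17, 4.50, 5.87 and 6.10 in BALB/c OVA lungs, against 4.85, 4.68, 3.74 and 3.63 in BALB/c PBS lungs. In BALB/c lung replicates 3 and 4 were the highest of the OVA group and the lowest of the PBS group, as for Gzma; the part of NK cells in the granzyme values was not tested. Of the 5 other granzymes with a realigned label, Gzmc, Gzmf and Gzmg were under log2 4 on all 16 arrays and Gzmn on 15. Gzmk, the neighbour of Gzma on chromosome 13, lay at 2.43 to 2.61 on all arrays labelled BALB-RAG. It reached 4.17, 2.61, 4.12 and 3.96 in BALB/c OVA lungs, against 2.46, 2.44, 2.77 and 2.54 in BALB/c PBS lungs. Gzmk passed only where no filter on low values was set (change 1.16, adjusted p = 0.00698). Fasl, the ligand of Fas, exceeded log2 4 on 2 arrays, 1 of each BALB/c group.

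**Figure D2:**
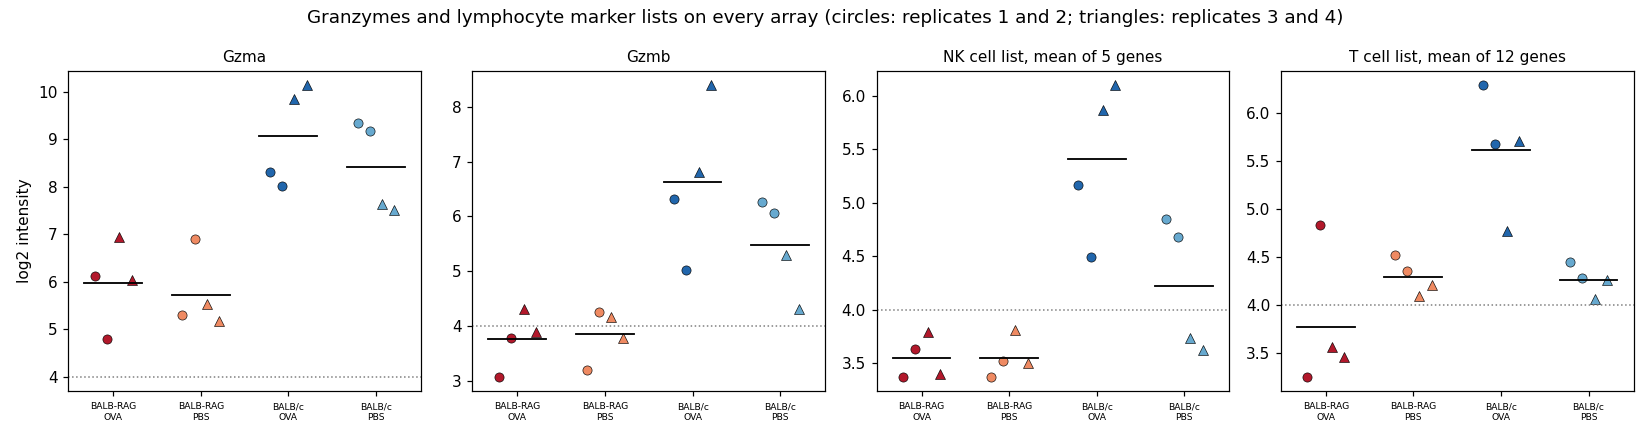
Log2 intensity of Gzma and Gzmb and the mean log2 intensity of the NK cell and T cell lists on every array (circles, replicates 1 and 2; triangles, replicates 3 and 4; black lines, group means; dotted line, log2 4). In both BALB/c groups the circles and triangles separate for Gzma, and in opposite order.

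On arrays labelled BALB-RAG, no member passed for OVA against PBS, where 0.165% of all genes did (12 genes, limma). At an unadjusted p under 0.05 stood 6 members (13.3%), beside 562 of all genes (7.72%). The median change was 0.05 over the members and 0.02 over all genes. Birc3 had the smallest adjusted p (0.263): its values were 8.27, 8.26, 8.68 and 8.45 on the OVA arrays and 7.52, 8.09, 8.05 and 7.96 on the PBS arrays, a difference of 0.51 ± 0.15 with no overlap. It was 0.56 for Bcl6 (adjusted p = 0.341) and 0.39 for Bcl2l11 (adjusted p = 0.449). For Gzma it was 0.25 (95% interval -1.01 to 1.51) and for Gzmb -0.09 (-1.29 to 1.11). Without replicate 2 labelled BALB-RAG OVA, the array with the higher T cell signal, Bcl11b passed with a change of -1.42 (adjusted p = 0.0379); with it the difference was -0.89 (adjusted p = 0.645).

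**Figure D3:**
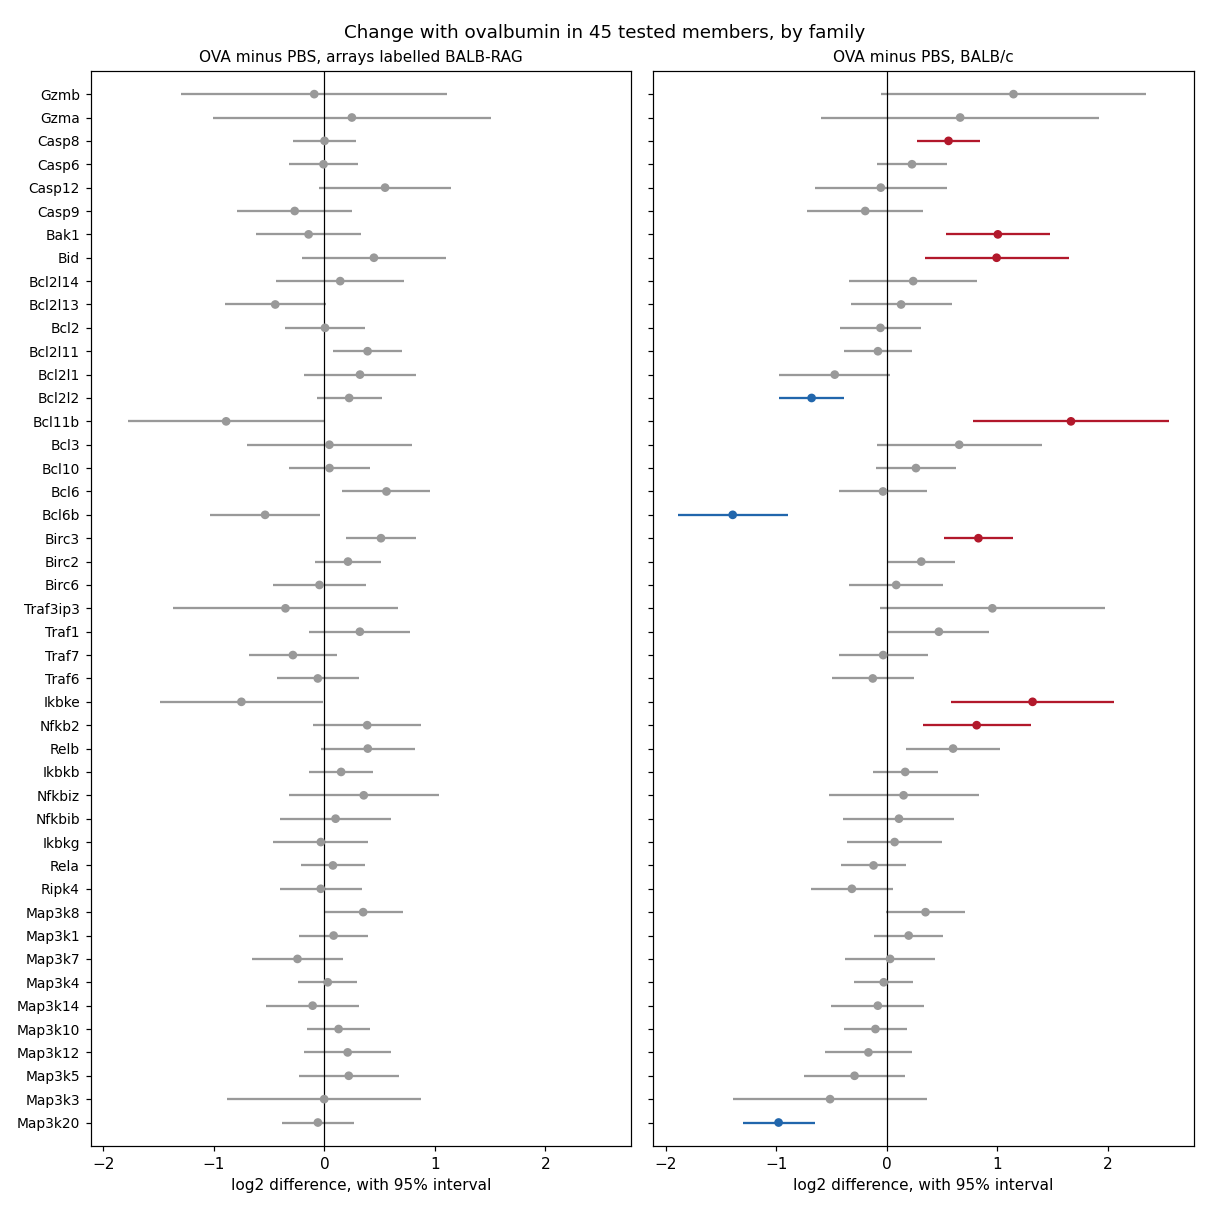
Log2 difference OVA minus PBS (horizontal axis) with its 95% interval for the 45 tested members, grouped by family, on arrays labelled BALB-RAG (left) and in BALB/c (right). Red marks members that rose and blue members that fell; there are 7 red and 3 blue points in BALB/c and none on the arrays labelled BALB-RAG.

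The OVA response itself differed between arrays labelled BALB-RAG and BALB/c in 5 members, tested as an interaction; over all genes 8.49% differed, 4.63% with a lower and 3.86% with a higher response on the arrays labelled BALB-RAG. The response of Bcl11b, Ikbke and Bak1 was lower on the arrays labelled BALB-RAG, and that of Bcl2l2 and Map3k20 was higher. All 8 tested genes of cycling cells also had a lower response there, and their part in these differences was not tested. Bcl11b was 4.46, 6.33, 3.91 and 4.22 on the OVA arrays and 5.33, 5.54, 5.74 and 5.88 on the PBS arrays labelled BALB-RAG, so that its OVA values were lower except on replicate 2; the difference in response was -2.56 ± 0.59 (adjusted p = 0.0132), and -3.09 without replicate 2. Ikbke was 4.37, 4.86, 3.22 and 3.79 on the OVA arrays and 5.06, 4.99, 4.62 and 4.58 on the PBS arrays. Its difference in response was -2.07 ± 0.49 (adjusted p = 0.0155). The OVA values of 3.22 and 3.79 are under log2 4, and with such values set to log2 4 the difference in response was -1.82. For Bak1 the arrays labelled BALB-RAG gave 4.81, 4.87, 4.98 and 4.59 with OVA and 5.16, 5.25, 4.80 and 4.61 with PBS, which overlap, and the difference in response was -1.15 ± 0.31 (adjusted p = 0.0338).

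Bcl2l2 on arrays labelled BALB-RAG was 8.44, 8.56, 8.72 and 8.95 with OVA and 8.47, 8.38, 8.39 and 8.54 with PBS. The 2 sets overlapped, and the response differed from that in BALB/c by 0.90 ± 0.20 (adjusted p = 0.00903). Map3k20 was 9.62, 9.80, 9.52 and 9.81 with OVA and 9.74, 9.76, 9.51 and 9.98 with PBS, a difference in response of 0.92 ± 0.22 (adjusted p = 0.0149). Casp8 missed the threshold (-0.56, adjusted p = 0.0808) and passed it with replicate number as a block (adjusted p = 0.0338). For Birc3, Bid and Nfkb2 the response differed by -0.32, -0.55 and -0.43, with 95% intervals of -0.76 to 0.13, -1.47 to 0.37 and -1.12 to 0.26. The difference in response of Bak1 no longer passed without any 1 of 7 arrays, namely BALB-RAG OVA replicates 1 and 4, BALB-RAG PBS replicates 1 and 2, BALB/c OVA replicate 1 and BALB/c PBS replicates 3 and 4 (adjusted p 0.0589 to 0.0718).

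After PBS, 3 of the 45 members differed between arrays labelled BALB-RAG and BALB/c, all lower on the arrays labelled BALB-RAG: Gzma, Bcl6b and Birc3. Among all genes 1.94% were lower and 1.97% higher, 3.90% in all; the members' median difference was -0.19 and that of all genes -0.01. Gzma was 5.30, 6.90, 5.54 and 5.18 on arrays labelled BALB-RAG PBS, against 9.34, 9.18, 7.64 and 7.52 in BALB/c PBS lungs. No array of one group reached the other, and Gzma was 6.45-fold lower (-2.69 ± 0.59, adjusted p = 0.0177). Bcl6b was 6.57, 7.21, 6.98 and 6.53 on arrays labelled BALB-RAG PBS, against the 7.41 to 8.71 given above for BALB/c PBS, 2.23-fold lower without overlap (adjusted p = 0.0119). Birc3, at 7.52 to 8.09 on arrays labelled BALB-RAG PBS and 8.33 to 8.80 in BALB/c PBS lungs, was 1.58-fold lower (adjusted p = 0.0188).

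Gzmb differed by -1.62 ± 0.57 after PBS without passing (adjusted p = 0.137), at 3.21, 4.27, 4.18 and 3.80 on arrays labelled BALB-RAG and, in BALB/c, 6.26, 6.07, 5.31 and 4.31. On 5 of the 8 arrays labelled BALB-RAG its value was under log2 4, so that these differences have background on one side. With replicate number as a block 7 members were lower in place of 3, the added ones being Bid (adjusted p = 0.0369), Casp12 (0.0481), Nfkbiz (0.0297) and Traf1 (0.0434). Without BALB-RAG PBS replicate 1 or without BALB/c PBS replicate 1 the count was 1, Gzma and Birc3 no longer passing (adjusted p 0.058 to 0.065); Gzma was also lost without BALB-RAG PBS replicate 4 (0.0559) or BALB/c PBS replicate 2 (0.0591), and Birc3 without BALB/c PBS replicate 4 (0.0512). On the arrays of these 2 groups alone it was also 1. Bcl6b then lost its call (adjusted p = 0.0755), as did Birc3 (0.0986).

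After OVA, 15 of the 45 members differed: 13 were lower on arrays labelled BALB-RAG and 2 higher. The share of members that were lower was 28.9%, beside 12.1% of all genes, and 4.44% were higher, beside 11.6%; over all genes 23.8% differed. The members' median difference was -0.24, against 0.01 over all genes. Both granzymes, 3 of 8 NF-kB, Rel and IkB kinase genes, 2 of 4 TRAF genes, 2 of 8 mitochondrial genes, 2 of 5 other Bcl-numbered genes, and 1 gene each of the caspases and Birc proteins were lower; Bcl2l2 and Map3k20 were higher. These BALB/c OVA arrays also serve in the OVA against PBS comparison above, so the 2 comparisons share samples. Gzmb, counted in the 28.9%, exceeded log2 4 on 11 arrays, among them every BALB/c array. The arrays labelled BALB-RAG alone would not have met the filter on low values for Gzmb. Its call therefore sets signal in BALB/c against values near background.

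Gzma was 6.13, 4.79, 6.95 and 6.05 on arrays labelled BALB-RAG OVA, against 8.03 to 10.14 in BALB/c OVA lungs. That is 8.60-fold lower (-3.10 ± 0.59, adjusted p = 0.00118), with the groups more than 1 log2 unit apart. Gzmb was 3.08, 3.79, 4.31 and 3.90 on arrays labelled BALB-RAG OVA and 5.03 to 8.39 in BALB/c OVA lungs, a measured difference of -2.86 ± 0.57 (adjusted p = 0.00155). Since 1 of the 4 arrays labelled BALB-RAG OVA exceeded log2 4, the fold was taken with the others set to log2 4, which gave 5.88-fold lower (adjusted p = 0.00203). The NK cell list averaged 3.37 to 3.79 on arrays labelled BALB-RAG OVA, under background, against 4.50 to 6.10 in BALB/c OVA lungs. Of its 5 tested genes 4 were called lower. On arrays labelled BALB-RAG PBS the list also averaged under log2 4 (3.37 to 3.81). The filter on low values could thus be met through the BALB/c arrays, and these calls are not separate support for the granzyme difference. NK cells do not need RAG proteins to develop, and the part of these cells in the granzyme difference was not tested.

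Among NF-kB genes, Ikbke was lower (-2.05 ± 0.35, adjusted p = 0.000466), all arrays labelled BALB-RAG OVA being below all BALB/c OVA arrays; 2 of the 4 were under log2 4, and set to it they gave -1.80. Nfkb2, at 5.28, 5.64, 5.27 and 5.49 on arrays labelled BALB-RAG OVA, differed by -0.86 ± 0.23 (adjusted p = 0.0123), and BALB/c OVA replicate 3, at 5.41, lay among them. Relb was 5.26, 5.15, 5.24 and 5.67 on arrays labelled BALB-RAG OVA and differed by -0.76 ± 0.20 (adjusted p = 0.0109), again overlapping through BALB/c replicate 3. Rela differed by 0.04 (95% interval -0.26 to 0.33). Bcl3 was 5.48, 6.15, 5.85 and 6.00 on arrays labelled BALB-RAG OVA, below every BALB/c OVA array, with a difference of -1.51 ± 0.35 (adjusted p = 0.00502).

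Traf1 was 5.94, 5.76, 5.78 and 5.92 on arrays labelled BALB-RAG OVA and 6.57 to 6.91 in BALB/c OVA lungs, lower by 1.89-fold without overlap (adjusted p = 0.00523). Traf3ip3 was 3.30, 5.23, 3.21 and 3.37 on arrays labelled BALB-RAG OVA, against 6.23, 5.09, 4.76 and 5.89 in BALB/c OVA lungs. Replicate 2 of the arrays labelled BALB-RAG lay in the BALB/c range and the other three under log2 4; the difference was -1.72 (adjusted p = 0.0157), and without replicate 2 Traf3ip3 was at least 2.81-fold lower, all 3 other arrays being taken as log2 4 (adjusted p = 0.00155 on the values as measured). The call was lost without BALB/c OVA replicate 1 (0.0582) or without replicate 3 labelled BALB-RAG OVA (0.0507). Bcl11b was likewise highest on replicate 2 among the arrays labelled BALB-RAG OVA, where 1 array was under log2 4, and had a difference of -1.78 ± 0.42 (adjusted p = 0.00523), and -2.32 without replicate 2. The T cell list averaged 3.25 to 4.83 on arrays labelled BALB-RAG OVA, against 4.77 to 6.28 in BALB/c OVA lungs, and replicate 2 was its highest array in the first group; the part of T cells in these 2 genes was not tested.

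Casp8, at 7.58 to 7.86 on arrays labelled BALB-RAG OVA and 8.35 to 8.67 in BALB/c OVA lungs, was 1.68-fold lower (adjusted p = 0.000636). Bid, at 4.67 to 5.38 on arrays labelled BALB-RAG OVA and 6.48 to 7.00 in BALB/c OVA lungs, was 2.84-fold lower (adjusted p = 0.00195), and Bak1 1.77-fold lower (adjusted p = 0.0131). Birc3 was 1.98-fold lower (-0.98 ± 0.15, adjusted p = 0.000175). None of these 4 overlapped between the groups. A lack of overlap in called members describes the same arrays as the call and is not separate support. The share of all genes without overlap was not counted. Bcl2l2 was higher by 1.57-fold (adjusted p = 0.0028) and Map3k20 by 2.36-fold (adjusted p = 3.33e-05), both without overlap, while the other tested Map3k20 probe set differed by 0.26 (adjusted p = 0.448). Through the probe set that stands for it, Bcl2l1 was higher on every array labelled BALB-RAG OVA than on every BALB/c OVA array. It missed the threshold at an adjusted p of 0.05001. Other Bcl2l1 probe sets differed by 0.67 (adjusted p = 0.255) and 0.12 (adjusted p = 0.774). With replicate number as a block Bcl2l1 passed (adjusted p = 0.0299), as did Bcl10 (0.0225), Map3k5 (0.0425), Nfkbiz (0.0342) and Ripk4 (0.0372).

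**Figure D4:**
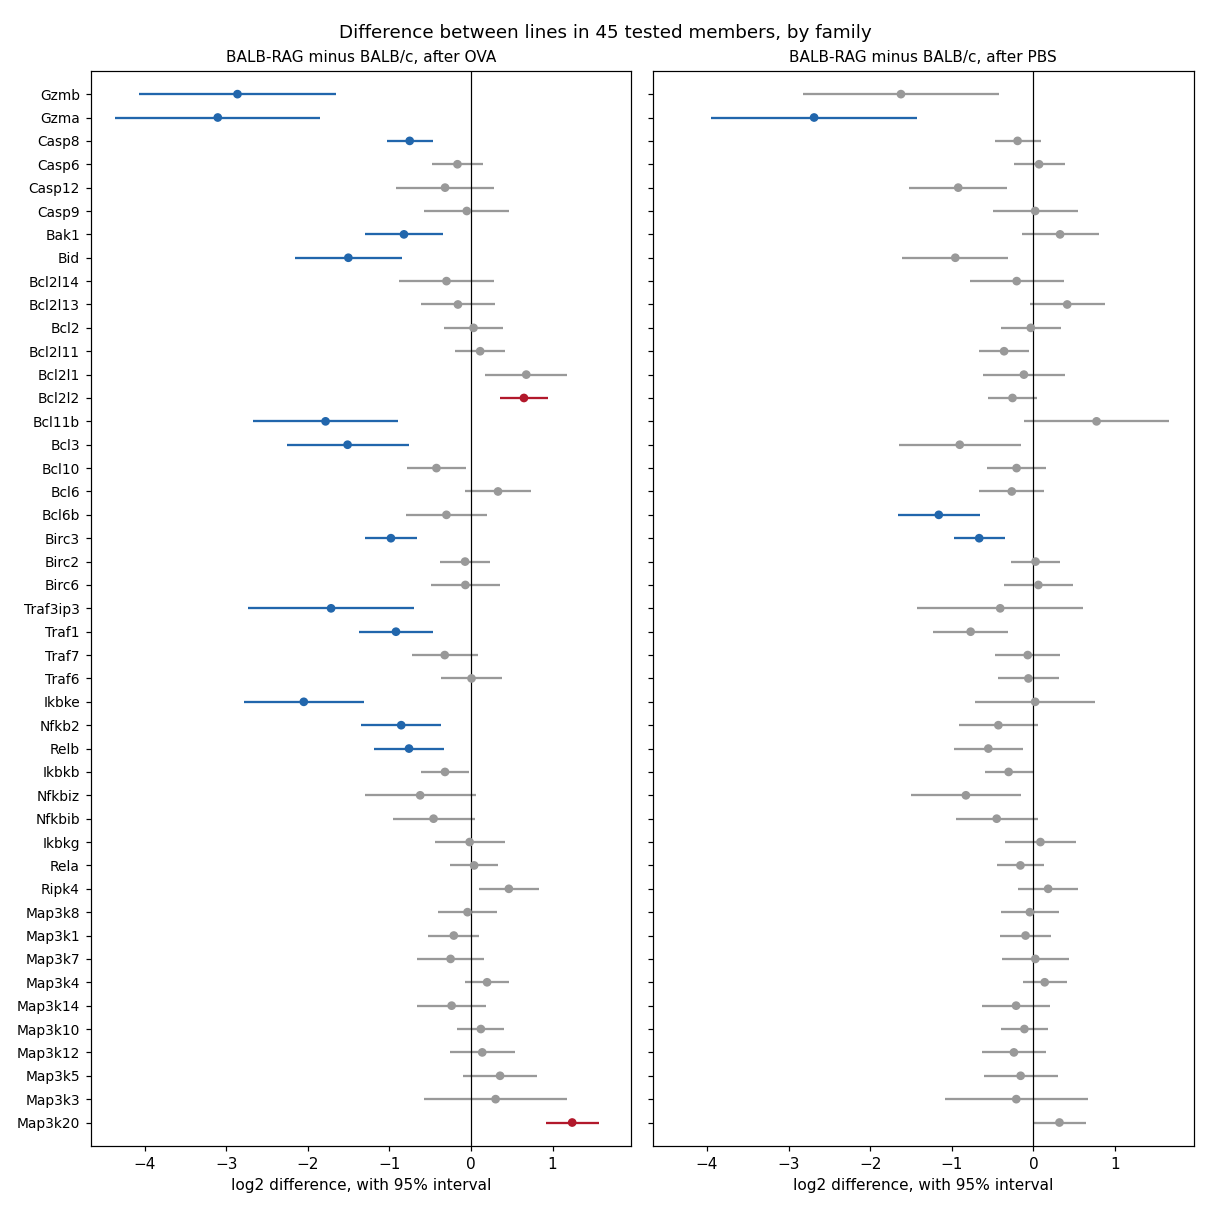
Log2 difference BALB-RAG minus BALB/c (horizontal axis) with its 95% interval for the 45 tested members, grouped by family, after OVA (left) and after PBS (right). Blue marks members that were lower and red members that were higher on arrays labelled BALB-RAG; after OVA 13 are blue and 2 red, after PBS 3 are blue.

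Traf6 lies on chromosome 2 beside Rag1, with no protein-coding gene between them and 1 between it and Rag2. Its difference between arrays labelled BALB-RAG and BALB/c was 0.01 after OVA (95% interval -0.37 to 0.38) and -0.06 after PBS (-0.43 to 0.31). Values were 5.85, 5.39, 6.15 and 6.12 on arrays labelled BALB-RAG OVA and 5.67, 6.00, 5.96 and 6.12 on those labelled BALB-RAG PBS, against 5.76, 5.73, 6.01 and 5.99 in BALB/c OVA lungs and 6.10, 6.07, 5.66 and 6.16 in BALB/c PBS lungs. All 4 sets overlapped. Map3k20, Traf1, Bcl2l11 and Bcl2l1, also on chromosome 2, are separated from Rag1 by 282 to 557 protein-coding genes.

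Other genes of the same pathways were read in the same fit, from lists drawn up by function with earlier results of these data known. Cytotoxic granule partners of the granzymes had 5 of 10 tested genes higher with OVA in BALB/c lung, none lower, and a median change of 0.56. These were led by Ctsw, a cathepsin of NK and T cells (6.72 ± 0.36 in OVA and 5.13 ± 0.36 in PBS lungs, SD, n = 4 each; change 1.60, adjusted p = 0.00067), Ctsc, which activates granzymes (0.92, adjusted p = 0.00142), Cst7 (1.35) and Serpinb9, an inhibitor of granzyme B (0.61). After OVA 6 of the 10 were lower on arrays labelled BALB-RAG than in BALB/c.

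Textbook NF-kB targets had 6 of 20 tested genes higher with OVA in BALB/c lung and none lower, with a median of 0.47. Cxcl10, a chemokine for T and NK cells, was 7.77 ± 0.61 in BALB/c OVA lungs and 5.05 ± 0.10 in BALB/c PBS lungs (change 2.73, adjusted p = 1.68e-06). Lcn2, an iron-binding acute phase protein, changed by 3.37, Cd83, a dendritic and B cell surface protein, by 2.16 and the neutrophil chemokine Cxcl1 by 1.58. Of NF-kB activators and inhibitors 5 of 20 were higher and none lower (median 0.35): the antigen receptor kinase Prkcb changed by 1.60, the inflammasome adaptor Pycard by 2.19, Tank by 0.58 and the A20-binding inhibitor Tnip1 by 0.61. After OVA 10 of the 20 targets and 6 of the 20 activators and inhibitors were lower on arrays labelled BALB-RAG than in BALB/c, and none higher.

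Death receptor and TNF receptor genes had 5 of 15 higher and 1 lower with OVA in BALB/c lung (median 0.21); the leading ones were receptors of lymphocytes and myeloid cells, Tnfrsf13b (1.42), Tnfrsf1b (1.22), Tnfrsf13c (1.31) and Tnfrsf4 (0.74). In the mitochondrial and p53 list 1 of 27 was higher and 1 lower (median -0.15). Birc5 (survivin), which acts in cell division as well as against caspases, changed by 2.88 and the restraining Mcl1 by -0.36; the mitochondrial Bnip3 (-0.51, adjusted p = 0.0623) and Htra2 (0.68, adjusted p = 0.0833) did not pass. The MAP kinase cascade had 2 of 21 higher and 2 lower (median 0.04): Mapkapk3, a kinase below p38, changed by 1.13, Mapk6 by 0.33, the transcription factor Jun by -0.84 and the phosphatase Dusp16 by -0.66. On arrays labelled BALB-RAG, none of these 6 lists had a gene past the threshold for OVA against PBS (limma; between 0 and 5 genes a list at an unadjusted p under 0.05).

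Several leukocyte marker lists moved with these groups. With OVA in BALB/c lung 7 of 7 tested macrophage genes, 8 of 9 dendritic cell genes and 7 of 8 genes of cycling cells were higher. The macrophage list averaged 7.58 to 7.95 on the OVA arrays and 6.78 to 7.68 on the PBS arrays labelled BALB-RAG; the BALB/c values were 9.06 to 10.21 in OVA lungs and 7.13 to 8.02 in PBS lungs. The list of cycling cells averaged 4.12 to 4.78 on the OVA arrays and 5.80 to 6.03 on the PBS arrays labelled BALB-RAG, below and above the BALB/c arrays of the same exposure, with 6.21 to 7.56 in BALB/c OVA lungs and 4.67 to 5.22 in BALB/c PBS lungs. On arrays labelled BALB-RAG 1 of its 8 genes fell with OVA (median -1.19), all 8 had a lower response than in BALB/c (median -3.42), and after PBS 4 of 8 were higher than in BALB/c (median 1.07). On arrays labelled BALB-RAG the B cell list averaged 3.91 to 5.80 with OVA, replicate 2 being the highest, and 4.83 to 5.39 with PBS. BALB/c lungs had 6.42 to 7.38 with OVA and 5.70 to 6.02 with PBS. Of the neutrophil, eosinophil and mast cell lists 5, 1 and 1 genes were tested, and 1, 0 and 0 of them were higher with OVA in BALB/c lung. The neutrophil gene that was higher was Lcn2, which is also on the list of NF-kB targets. The other 4 neutrophil genes had negative differences, none past the threshold (list median -0.40). The eosinophil gene differed by 0.51 and the mast cell gene by -0.71, neither past the threshold. The part of these cells in the members' changes was not tested.

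The remaining members have no test. Of the 87 matching symbols, 27 had no label that could be tied to its row and were not analysed here, among them Casp1, Fas, Prf1, Nfkbia, Traf2 and Ripk3. With a realigned label but under the filter were 15: Bcl11a, Bcl2l10, Bcl9l, Casp14, Fasl, Gzmc, Gzmf, Gzmg, Gzmk, Gzmn, Map3k2, Map3k21, Nfkbid, Rel and Traf4.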

How the data were processed

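Total RNA from whole mouse lung was biotin-labelled and hybridised to one-colour Affymetrix arrays, 4 replicates in each of 4 groups. The deposited values are linear intensities, made by the authors with GCRMA per the submitters' processing notes. They were used as log2 intensity with no further scaling. In the deposited table of 45101 probe set labels, labels and values are shifted against each other, so 14300 labels in 3 stretches were tied to the row that holds their values. The first stretch was read 64 rows above, the second 47 rows below and the third a longer fixed distance below, and all other labels were left out. Probe sets of 1 gene that lie in different stretches, both above log2 6, then had a median correlation over the arrays of 0.679 (83 pairs), 0.700 (139 pairs) and 0.566 (306 pairs); with the labels as deposited it was -0.01 to 0.15, and with the second stretch read 47 rows above it was 0.01 and -0.03. Symbols came from the platform annotation: 13146 of the realigned labels have 1 symbol, 366 several and 788 none, and those with several or none name no gene here.

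A gene was tested where a probe set exceeded log2 4 on at least 4 arrays, through the probe set with the highest mean. limma 3.58.1 (R 4.3.3) fitted 4 group means over 16 arrays with 12 residual degrees of freedom, and p-values were adjusted by the Benjamini-Hochberg method over 7276 genes, with a threshold of 0.05. The number of arrays limits the precision. On simulated data with these group sizes 64 of 100 genes changed by log2 1 and 92 of 100 changed by log2 2 were recovered over 7276 genes, and 10 unchanged genes were called. This was read for OVA against PBS in BALB/c only. The simulated noise was independent between arrays, and fewer genes were changed than were called in the data. The recovery in the data and in the other comparisons can therefore differ. Named with full values were the members past the threshold in each of the 5 comparisons and both tested granzymes, and from each pathway list up to 4 genes by smallest p. The members and lists were chosen with earlier results of these data known. Deviations of same-numbered arrays from their group means correlated at 0.304 to 0.456 for OVA against PBS in BALB/c and 0.320 to 0.349 between lines after PBS. The values were 0.182 to 0.332 between lines after OVA and 0.0253 to 0.478 for OVA against PBS on arrays labelled BALB-RAG. The highest correlation with another number was 0.331 to 0.422, 0.312 to 0.475, 0.178 to 0.358 and 0.123 to 0.456 in these 4 comparisons, in the order given. It exceeded the same-number value for 2, 3, 2 and 2 of 4 replicates. An offset between replicates 1 and 2 and replicates 3 and 4 would raise both kinds of correlation. These values therefore do not establish that the numbers pair the arrays, and they cannot separate pairing from such an offset. Fits with replicate number as a block are given as alternatives only. The fit without the block is the one reported, and 28 alternatives were tried.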

Additional observations from a re-analysis of the deposited data

Results flagged for a closer look

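In 5 members the response to OVA differed between arrays labelled BALB-RAG and BALB/c (limma, response on arrays labelled BALB-RAG minus response in BALB/c). Bcl11b differed by -2.56, Ikbke by -2.07, Bak1 by -1.15, Bcl2l2 by 0.90 and Map3k20 by 0.92 on the log2 scale. With values under log2 4 set to log2 4, Bcl11b differed by -2.53 and Ikbke by -1.82. Among the 16 members with a call, 64 groups of 4 arrays were searched for an array far from the other three, and 4 were found, where chance flags about 1 group in 20. Traf3ip3 had 2 of them. On the arrays labelled BALB-RAG OVA, replicate 2 was at 5.23 and the other three at 3.21 to 3.37; on those labelled BALB-RAG PBS, replicate 4 was at 3.46 and the others at 4.28 to 4.41. In BALB/c OVA lungs Nfkb2 was at 5.41 in replicate 3 and at 6.49 to 6.64 in the others, and Bid was at 7.00 in replicate 1 and at 6.48 to 6.56 in the others.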

How the results depend on the processing

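No change of a called member turned its direction under the 28 alternatives. Granzyme differences without a call did. In replicates 1 and 2 alone the response to OVA in BALB/c was -1.09 for Gzma and -0.49 for Gzmb, that of Gzma on arrays labelled BALB-RAG -0.64, and the differences in response 0.45 for Gzma and 0.19 for Gzmb; in replicates 3 and 4 alone Gzmb on arrays labelled BALB-RAG was 0.12. With single arrays left out, the response on arrays labelled BALB-RAG was -0.075 to 0.64 for Gzma and -0.31 to 0.14 for Gzmb. Of the 5 counts of called members, that for OVA against PBS in BALB/c (10) was 6 in replicates 1 and 2 alone and 7 to 11 with single arrays left out. That for arrays labelled BALB-RAG (0) was 0 to 1 with single arrays left out. The difference in response (5) gave 2 in replicates 3 and 4 alone, 3 above log2 6 and 4 to 6 with single arrays left out. After PBS the lines differed in 3 members, in 7 with the replicate block and with a term for replicates 1 and 2 against 3 and 4, in 5 with arrays centred on their median (Casp12 and Traf1 added), in 1 in either replicate pair alone, in 1 with the 2 groups alone, and in 1 to 4 with single arrays left out. After OVA (15) it was 9 in replicates 3 and 4 alone and 14 to 17 with single arrays left out. Other alternatives left each count within 1.5 times its value; with the replicate block the other counts were 12, 0, 6 and 20. Over all genes, the block gave 1764 calls against 1128 for OVA in BALB/c, 41 against 12 on arrays labelled BALB-RAG, 1152 against 618 for the difference in response and 609 against 284 after PBS; a term for replicates 1 and 2 against 3 and 4 gave 1820, 67, 1214 and 635. Replicates 3 and 4 alone gave 547, 5, 212, 52 and, after OVA, 693 against 1729. The 12 calls on arrays labelled BALB-RAG were 6 to 42 with single arrays left out, most without OVA replicate 2, and 3 to 25 under the other settings; the 284 after PBS were 142 with the 2 groups alone and 174 to 397 with single arrays left out. A fit on the groups of 1 comparison cannot be made for the difference in response, which uses all groups. The causes were not tested; fits on 2 replicates a group hold fewer arrays. Nfkb2 and Bid in BALB/c, Bak1 in the difference in response and Gzma and Birc3 after PBS are the calls nearest the threshold.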
